A study of Mus musculus with 21 samples.

Results

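A set of 10 genes of the canonical WNT pathway was followed across mouse formative stem cells, epiblast stem cells and early postimplantation epiblasts. They are the feedback inhibitors Axin2, Nkd1, Rnf43, Znrf3 and Notum, the feedback transcription factor Sp5, and the DNA-binding TCF/LEF factors Lef1, Tcf7, Tcf7l1 and Tcf7l2. The genes were taken by symbol, and all 10 had a row of their own among the 33861 genes of the count table. In each fit 9 of the 10 passed the filter on low counts, and Notum did not.

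RNA was sequenced from 12 cultured samples of 1000 cells each and from 9 single epiblasts, in 7 groups of 3. FS cells, described in the labels as formative stem cells, came from lines FS1 (passages 10, 11 and 18) and FS2 (passages 12, 13 and 16) and were grown in a medium named A3XR. AF and AFX cells are labelled EpiSCs, carry E14 in their descriptions, and were sampled at passages 14, 15 and 16 in the media AF and AFX. The epiblasts were embryos 1, 2 and 4 at embryonic day 5.0 (E5.0) and embryos 1, 2 and 3 at E5.5 and at E6.0, a stage given as 6.5 in another label field. The labels name no strain, no genotype and no composition of the media. From the published work on these cells, and not from the labels, the letters A and F stand for activin and FGF2, X for a tankyrase inhibitor that stabilises AXIN proteins, and R for a retinoic acid receptor inhibitor, so X is in A3XR and AFX and not in AF. Passages of a line are not independent derivations, so p-values among cultured cells measure the spread between passages. FS differ from AF and AFX in line and in medium together, and these cannot be told apart.

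In the canonical pathway a WNT ligand binds a Frizzled and LRP receptor pair, the destruction complex stops marking beta-catenin for degradation, and beta-catenin enters the nucleus and binds TCF/LEF proteins. Genes switched on by this complex include inhibitors of the pathway itself, so their RNA is widely used as a readout of signalling. Without beta-catenin the TCF/LEF proteins recruit Groucho corepressors of the TLE family. TCF7L1 acts mainly as a repressor and in pluripotent cells holds down naive pluripotency genes, whereas LEF1 and TCF7 are more often activators. In the mouse embryo WNT signalling in the posterior epiblast precedes the primitive streak.

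Total counts per sample ran from 5827093 to 15916800, and a count of 3 corresponded to 0.171 to 0.589 CPM, the level used below, which is counts scaled to the library total with the trimmed mean of M values. The epiblast markers Pou5f1, Sox2, Otx2, Utf1 and Fgf5 were found in every group, with a summed level of 583 to 833 CPM in cultured samples and 980 to 1248 CPM in epiblasts. Markers of other cells differed between groups. The summed level of 8 visceral endoderm markers was 250 to 796 CPM at E5.0, 31.6 to 61.9 at E5.5, 24.4 to 30.5 at E6.0, 54.8 to 85.1 in AF and 6.35 to 23.1 in FS and AFX. Of 8 primitive streak and mesendoderm markers the sum was 151 to 585 CPM in AF, 66.0 to 144 in AFX and 32.0 to 110 in FS. Of 7 feeder fibroblast markers it was 216 to 258 CPM in AF and 9.32 to 52.1 in all other groups. Of 5 neural markers the sum was 284 to 462 CPM in cultured samples and 48.2 to 161 CPM in epiblasts, with no overlap. In bulk samples fewer cells of a type and less RNA per cell cannot be told apart.

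The members lie on 6 chromosomes of mm10 (GRCm38), with annotation from GENCODE M21 and CPM counted over whole genes. Axin2 is at chr11:108920349-108950783, Nkd1 at chr8:88521354-88594884, Rnf43 at chr11:87662722-87735539 and Znrf3 at chr11:5276324-5444847. Notum is at chr11:120653788-120661175, Sp5 at chr2:70474923-70477729 and Lef1 at chr3:131110471-131224356. Tcf7 is at chr11:52252371-52283014, Tcf7l1 at chr6:72626378-72789254 and Tcf7l2 at chr19:55741820-55933654. Lef1 shares 1208 exon bases with the antisense gene Gm43352, which had 536 counts over the 21 samples against 22633 for Lef1, and the strand setting of the counting is not given in the sources used here.

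TCF/LEF proteins bind DNA at a short site, and CTTTGA is one form of it. Promoter windows of 250 bases before an annotated start were matched for 8 of the 10 members in RefSeq (GRCm38.p6), and CTTTGA was searched on both strands. It was found before a start of Sp5 and of Lef1 and in no window of Axin2, Nkd1, Rnf43, Tcf7, Tcf7l1 or Tcf7l2. The windows of Sp5 and Lef1 with the letters and that of Axin2 without them are shown, because Axin2 and Sp5 are widely used readouts of the pathway and Lef1 had the largest stage difference among the members called between stages. They are chr2:70474673-70474922 for Sp5, chr3:131156044-131156293 for a start inside Lef1 and chr11:108920099-108920348 for Axin2, all on the plus strand, with CTTTGA or its reverse complement TCAAAG in capitals.
Sp5: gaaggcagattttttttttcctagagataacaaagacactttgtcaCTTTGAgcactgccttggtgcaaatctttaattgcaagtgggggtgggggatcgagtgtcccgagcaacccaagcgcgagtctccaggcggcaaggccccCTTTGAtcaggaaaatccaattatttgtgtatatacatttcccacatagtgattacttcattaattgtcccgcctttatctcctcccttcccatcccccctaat
Lef1: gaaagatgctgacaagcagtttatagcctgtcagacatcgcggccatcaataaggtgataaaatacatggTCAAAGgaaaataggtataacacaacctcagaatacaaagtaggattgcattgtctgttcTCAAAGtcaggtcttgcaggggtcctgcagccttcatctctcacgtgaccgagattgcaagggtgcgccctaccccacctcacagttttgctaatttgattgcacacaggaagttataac
Axin2: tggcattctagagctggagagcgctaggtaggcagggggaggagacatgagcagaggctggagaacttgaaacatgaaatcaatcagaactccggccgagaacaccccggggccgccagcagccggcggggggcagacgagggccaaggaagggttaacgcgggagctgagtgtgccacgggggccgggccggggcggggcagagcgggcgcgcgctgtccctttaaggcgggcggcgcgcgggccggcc
The Sp5 window holds CTTTGA 204 and 104 bases before the start, the nearer one as part of the longer CTTTGAT. The Lef1 window holds it on the minus strand at 180 and 120 bases, and the other 3 windows of Lef1 do not hold it. Of all 32851 promoter windows of this length, 13.8% hold CTTTGA and 3.21% hold CTTTGAT, and 15.8% of 27025 genes have CTTTGA in a window, against 2 of the 8 matched members. The shorter CTTTG, held by 48.6% of windows and 52.2% of genes, was found for Sp5, Lef1, Tcf7l1 and Tcf7l2. It was in no window of Axin2, Nkd1, Rnf43 or Tcf7. A match of letters is a description of the sequence, and no match says only that the letters are not in that window.

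Axin2, a scaffold of the destruction complex and the most commonly used WNT target gene, was highest in the youngest epiblasts and lowest in cultured cells. Its level was 73.6, 77.5 and 87.3 CPM in E5.0 embryos 1, 2 and 4, 35.7, 23.4 and 36.0 in E5.5 embryos 1, 2 and 3, and 53.7, 70.02 and 29.7 in E6.0 embryos 1, 2 and 3. The cultured samples had 28.6, 13.8 and 8.06 CPM in FS1 passages 10, 11 and 18, 9.16, 9.60 and 15.2 in FS2 passages 12, 13 and 16, 17.6, 8.61 and 28.4 in AF and 18.4, 16.1 and 18.7 in AFX passages 14, 15 and 16. E5.0 lay above every other sample, E6.0 overlapped E5.5, and the 4 cultured groups overlapped each other except that FS2 lay below AFX. The 9 epiblasts covered 23.4 to 87.3 CPM, and FS1 passage 10 and AF passage 16 were the cultured samples that reached into that range.

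Nkd1, an inhibitor that binds Dishevelled, had the opposite order, with every cultured sample but 1 above every epiblast. It was 19.4, 16.8 and 11.9 CPM in FS1, 8.76, 10.9 and 12.7 in FS2, 17.4, 7.82 and 18.7 in AF and 19.7, 13.998 and 19.3 in AFX, in the same order of passages. In epiblasts it was 4.72, 3.53 and 2.28 CPM at E5.0, 6.55, 8.71 and 4.94 at E5.5 and 5.78, 7.36 and 6.39 at E6.0. The exception was AF passage 15 at 7.82 CPM, below E5.5 embryo 2 at 8.71 CPM. The E5.0 embryos lay below all embryos of the later stages.

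Rnf43 and Znrf3 are related membrane ubiquitin ligases that remove Frizzled receptors from the cell surface. Rnf43 was low, at 0.63 to 9.23 CPM in the 12 cultured samples (group means from 2.38 in FS2 to 4.19 in AF) and 0 to 1.83 CPM in the 9 epiblasts, and these ranges overlapped. Its highest value was AF passage 15, where Axin2, Nkd1 and Sp5 were each lowest of the 3 AF passages. Znrf3 was 15.7 to 24.9 CPM in cultured samples and 24.9 to 39.7 CPM in epiblasts. The highest cultured sample, FS2 passage 16, and the lowest epiblast, E6.0 embryo 2, met at 24.9 CPM, and no order could be seen among the 4 cultured groups or among the 3 stages.

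Notum, a secreted enzyme that inactivates WNT ligands, was at or near the limit of detection everywhere. It had 6, 9 and 1 counts in FS1, 1, 0 and 2 in FS2, 2, 1 and 2 in AF, 1, 0 and 9 in AFX, 0, 0 and 6 at E5.0, 2, 0 and 0 at E5.5 and 4, 0 and 1 at E6.0. Samples above 3 counts occurred in FS1, AFX, E5.0 and E6.0, each beside a sample of the same group at 0 or 1 count. No comparison is given for it.

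Sp5, a zinc finger factor that competes with the TCF/LEF-driven transcription of WNT targets, was close to absent in most samples and high in a few. It had 51, 7 and 0 counts in FS1, 0, 0 and 2 in FS2, 72, 14 and 158 in AF and 12, 2 and 13 in AFX, which is 5.06, 0.83 and 0 CPM in FS1, 8.88, 1.23 and 14.7 in AF and at most 1.08 in AFX. The embryos had 2, 9 and 8 counts at E5.0, 5, 4 and 0 at E5.5 and 11, 47 and 0 at E6.0, the highest being 4.07 CPM in E6.0 embryo 2. FS2 stayed at or under 3 counts in all its passages. AF lay above AFX in every sample, with passage 15 of AF at 1.23 CPM just over passage 16 of AFX at 1.08 CPM.

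**Figure D1:**
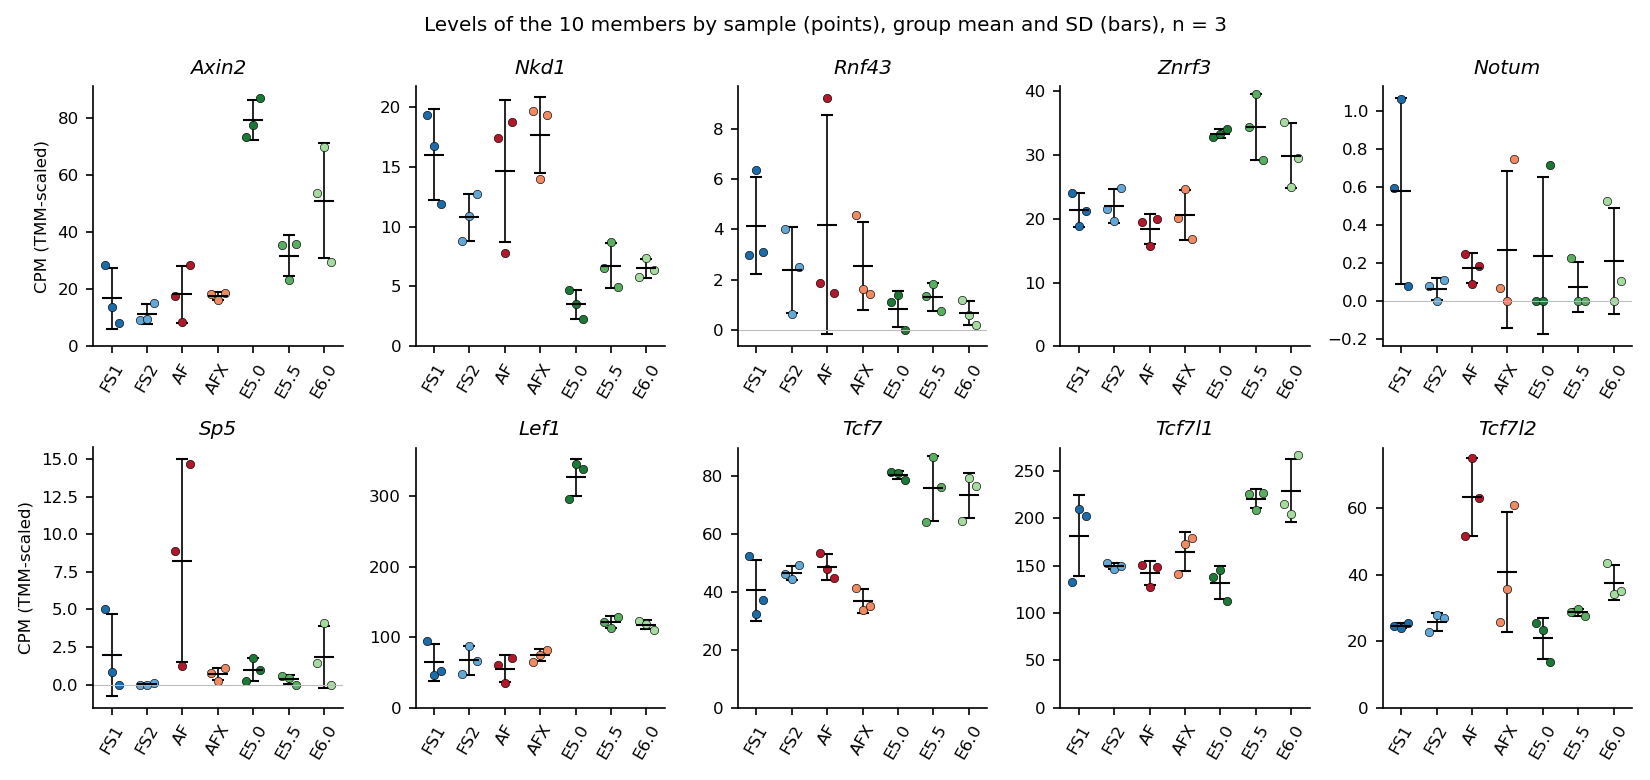
Level of each of the 10 genes in CPM (vertical axes, each gene on its own scale) in the 7 groups, with a point for each sample and bars for the mean and SD of 3 samples. Axin2 and Lef1 are highest at E5.0, Nkd1 is higher in every cultured sample but AF passage 15 than in any epiblast, Tcf7l2 is highest in AF, and bars that reach under 0 belong to genes with very few counts.

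Lef1 was highest at E5.0, lower at the later stages and lowest in culture. It was 297, 346 and 339 CPM in the E5.0 embryos, 122, 113 and 129 at E5.5 and 124, 119 and 111 at E6.0. The cultured samples ranged from 34.98 CPM in AF passage 15 to 95.1 CPM in FS1 passage 10, with group means of 64.8 ± 26.4 in FS1, 67.2 ± 20.1 in FS2, 55.7 ± 18.7 in AF and 74.5 ± 8.53 in AFX (SD, n = 3). The 3 levels did not overlap: E5.0 lay above the later epiblasts, which lay above every cultured sample.

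Tcf7, which like LEF1 can activate targets with beta-catenin, separated embryo from culture but not the stages. It was 81.4, 81.2 and 78.8 CPM at E5.0, 64.2, 86.8 and 76.4 at E5.5 and 64.6, 79.3 and 76.6 at E6.0. In culture it was 32.2 to 52.5 CPM in FS, 44.7 to 53.4 in AF and 33.7 to 41.5 in AFX. All epiblasts lay above all cultured samples, and AFX lay below AF.

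Tcf7l1, the repressor of the family, moved against Lef1 in the embryo. It was 138, 146 and 113 CPM at E5.0, 226, 209 and 226 at E5.5 and 215, 205 and 267 at E6.0, with E5.0 below all later embryos. In culture it was 133 to 210 CPM in FS1, 147 to 152 in FS2, 127 to 151 in AF and 141 to 179 in AFX. These groups overlapped each other, and the highest, FS1 passage 11 at 210 CPM, reached into the range of the later embryos.

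Among the cultured groups Tcf7l2 had its highest mean in AF and its lowest in FS. It was 51.8, 75.2 and 63.2 CPM in AF, 25.8, 35.7 and 60.9 in AFX, and 22.7 to 27.9 in the 6 FS samples. AF and FS did not overlap, and AFX passage 16 fell among the AF values while AFX passage 14 fell among the FS values. In epiblasts it was 25.4, 23.5 and 13.9 CPM at E5.0, 28.9, 29.6 and 27.6 at E5.5 and 43.6, 34.2 and 35.2 at E6.0. Each stage lay above the earlier one with no overlap, and the steps between neighbouring stages did not pass the test given below.

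Levels can be set between genes only per length, and per kilobase of exon Tcf7l1, Tcf7 and Lef1 had higher means than every feedback gene in all 7 groups. In FS the mean was 42.2 CPM per kilobase for Tcf7l1, 16.6 for Tcf7 and 7.51 for Lef1, and then 2.94 for Nkd1, 2.88 for Tcf7l2, 2.75 for Znrf3, 2.56 for Axin2, 0.498 for Rnf43, 0.476 for Sp5 and 0.134 for Notum. At E5.0 the order began with Lef1 at 37.2, Tcf7l1 at 33.6 and Tcf7 at 30.7, followed by Axin2 at 14.4. Axin2 stood above the other feedback genes at E5.0.

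As a share of the 4 TCF/LEF genes per kilobase, Lef1 made up 35.9 ± 3.07% at E5.0, 13.5 ± 0.852% at E5.5 and 12.997 ± 1.69% at E6.0 (SD, n = 3). The share of Tcf7l1 was 32.3 ± 2.84%, 55.0 ± 3.06% and 55.9 ± 3.76% in the same order. The ratio of Tcf7l1 to Lef1 was 1.04, 0.943 and 0.744 in E5.0 embryos 1, 2 and 4 and 3.84 to 5.39 in the 6 later embryos. In culture this ratio was 3.13 to 10.1 in FS1, 3.76 to 7.21 in FS2, 4.66 to 8.14 in AF and 4.80 to 5.17 in AFX, so the cultured samples overlapped the later embryos and not E5.0. The shares depend on the length taken for each gene: with the longest coding transcript Lef1 made up 53.5% and Tcf7l1 24.7% at E5.0, and Lef1 23.9% at E5.5, and the direction between the stages was the same. Tcf7l2 had the smallest mean share in every group but AF, at 2.29% at E5.0, 4.17% in FS and 10.7 ± 2.69% in AF, where Lef1 had 9.17 ± 2.67%. The exception of AF rested on passage 15, with 13.6% for Tcf7l2 and 6.29% for Lef1. In passages 14 and 16 Tcf7l2 was the smallest share, at 8.23% and 10.3%, against 9.67% and 11.6% for Lef1.

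**Figure D2:**
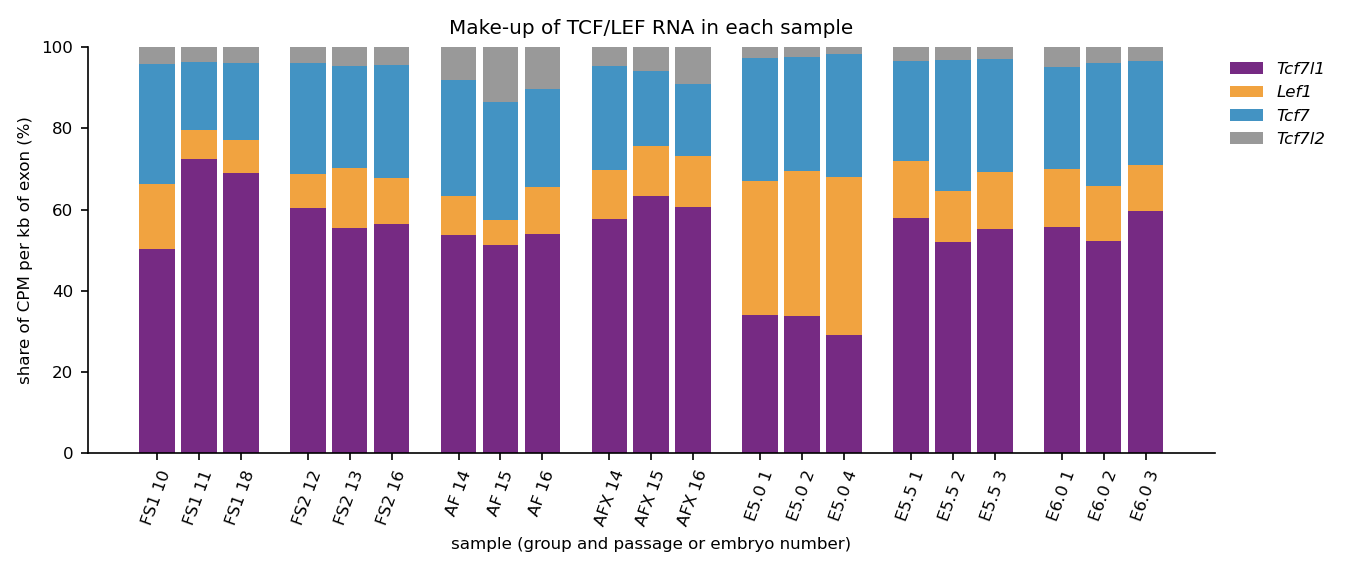
Share of each TCF/LEF gene in the summed CPM per kilobase of exon (vertical axis, %) in the 21 samples, labelled by group and passage or embryo number. With this length Lef1 takes 32.9 to 39.0% and Tcf7l1 29.0 to 34.2% in the 3 E5.0 embryos, and Tcf7l1 is the largest share in all 18 other samples.

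Between epiblast stages the members were tested in a fit of the 9 embryos. From E5.0 to E5.5, Lef1 fell by 1.44 ± 0.10 (log2 fold change ± SE, edgeR quasi-likelihood test, Benjamini-Hochberg adjusted p = 2.29e-05), Axin2 fell by 1.34 ± 0.27 (adjusted p = 0.0126) and Tcf7l1 rose by 0.73 ± 0.13 (adjusted p = 0.00508). These are 3 of the 9 members tested, 1 higher and 2 lower at E5.5, where 6.82% of all 14228 genes passed the threshold (3.07% higher and 3.75% lower). Their median log2 fold change was 0.03, against -0.01 over all genes. Axin2 did not pass without E5.5 embryo 2, at -1.15 with adjusted p = 0.058. Nkd1 differed by 0.92 ± 0.40 (adjusted p = 0.187), although its E5.0 values lay below all of E5.5.

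The sum of primitive streak and mesendoderm markers was 73.1 to 122 CPM at E5.0 and 22.9 to 49.9 CPM at E5.5, with 2 of 6 tested lower at E5.5, and its part in the result was not tested. The summed visceral endoderm markers moved with this comparison too, 5 of 6 tested being lower at E5.5 and all 8 being above 3 counts in some sample of E5.0 and of E5.5. Embryo 4 had the lowest sum of the E5.0 embryos, 250 CPM against 526 and 796 CPM in embryos 1 and 2. In that embryo Lef1 was 339 CPM and Axin2 87.3 CPM, inside and at the top of the E5.0 range. Its marker sum was still above the 61.9 CPM of the highest later embryo, and the part of these cells in the result was not tested further.

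From E5.0 to E6.0, Lef1 fell by 1.49 ± 0.10 (adjusted p = 6.68e-07), Tcf7l1 rose by 0.78 ± 0.13 (adjusted p = 0.000696) and Tcf7l2 rose by 0.83 ± 0.22 (adjusted p = 0.0167). This is 3 of 9 members, 2 higher and 1 lower, where 21.8% of all genes passed (10.2% higher and 11.6% lower), and the 2 stage comparisons share the E5.0 embryos. Of the visceral endoderm markers 5 of 6 tested were lower at E6.0, with sums of 250 to 796 CPM at E5.0 and 24.4 to 30.5 at E6.0. The neural marker sums rose with stage, at 48.2 to 73.0 CPM at E5.0, 74.6 to 103 at E5.5 and 127 to 161 at E6.0. Of 3 neural markers tested 1 was higher at E6.0 than at E5.0. The part of either kind of cell in these results was not tested. Tcf7l2 did not pass without E6.0 embryo 1, at 0.73 with adjusted p = 0.072. Axin2 was -0.65 ± 0.26 (adjusted p = 0.0957), and passed at -0.93 with adjusted p = 0.031 without E6.0 embryo 2. Nkd1 was 0.87 ± 0.40 (adjusted p = 0.138).

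Between E5.5 and E6.0 none of the 9 members passed, where 4.43% of all genes did (1.89% higher and 2.54% lower at E6.0). The DESeq2 Wald test likewise called 0 members, and 1 member, Axin2, had an unadjusted p under 0.05. Axin2 differed by 0.69 ± 0.26 (adjusted p = 0.177). Its E6.0 values were spread from 29.7 to 70.02 CPM, and without E6.0 embryo 3, the lowest, it passed at 0.97 with adjusted p = 0.027. The E6.0 embryos had streak marker sums of 118, 254 and 80.3 CPM, in the same order as their Axin2 levels of 53.7, 70.02 and 29.7 CPM and their Sp5 levels of 1.44, 4.07 and 0 CPM. Streak sums and Axin2 had the same order at E5.5 too, and the reverse order at E5.0. There the sums were 122, 107 and 73.1 CPM in embryos 1, 2 and 4, and Axin2 was 73.6, 77.5 and 87.3 CPM. The part of streak cells in these levels was not tested.

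Among the cultured cells, Tcf7l2 was the member that differed between FS and AF. It was lower in FS by -1.34 ± 0.20 on the log2 scale (edgeR, adjusted p = 0.000316), and was the only one of 9 members to pass, where 19.5% of all 16052 genes did (8.86% higher and 10.6% lower in FS). Sp5 was -3.11 ± 1.24 (adjusted p = 0.106). Without FS1 passage 10, which carried most of the Sp5 counts of FS, Sp5 passed at -5.63 with adjusted p = 0.002. It passed too at -4.60 (adjusted p = 0.00889) with the FS lines as separate groups, and with FS2 as the only FS line (adjusted p = 0.00112), whose passages were all at or under 3 counts. The other 7 members did not pass, and the median over the 9 was -0.17, against 0.02 over all genes. Markers of other cells were lower in FS as well. These were 5 of 6 feeder fibroblast markers tested, with sums of 15.2 to 44.6 CPM in FS and 216 to 258 in AF, and 5 of 7 streak markers. Only 3 of 8 listed visceral endoderm and 3 of 5 listed extraembryonic ectoderm markers passed the filter on low counts, all lower in FS. The extraembryonic sums were 13.9 to 20.6 CPM in FS and 32.2 to 46.7 in AF. In every passage 5 visceral endoderm markers in FS1 and 7 in FS2 were at or under 3 counts, against 3 in AF. Markers that passed the filter through AF alone can hardly come out other than lower in FS, which limits the visceral endoderm count. The part of those cells in the level of Tcf7l2 was not tested.

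AFX lay between FS and AF for Tcf7l2. It was lower in FS than in AFX by -0.70 ± 0.20 (adjusted p = 0.0449), the only one of 9 members to pass, where 8.7% of all genes did (3.78% higher and 4.92% lower in FS). This call rested on AFX passage 16: without it the difference was -0.29 with adjusted p = 0.404. It was also lost in 7 of the other 8 fits that left out 1 sample and with the compared groups alone. AFX passage 16 had the highest streak marker sum of AFX, 144 CPM against 66.0 and 84.1, and the highest visceral endoderm sum, 23.1 CPM against 12.5 and 13.1. Its feeder fibroblast sum of 33.6 CPM was under the 52.1 CPM of AFX passage 14. Other samples went the other way: AF passage 15 had the lowest streak sum of AF, 151 CPM, and the highest Tcf7l2. FS1 passage 10, with a streak sum of 110 CPM, had Tcf7l2 within the range of the other FS samples. The part of streak, visceral endoderm or feeder cells in the level of Tcf7l2 was not tested.

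In AFX against AF, cells of the E14 name in media that differ by X, none of the 9 members passed, where 8.73% of all genes did (4.3% higher and 4.42% lower in AFX). The DESeq2 Wald test called 0 as well, and 2 members had an unadjusted p under 0.05, Tcf7 (adjusted p = 0.160) and Tcf7l2. Sp5 was -3.46 ± 1.61 (adjusted p = 0.241), and passed with these groups fitted alone, at -3.45 with adjusted p = 0.0376. Tcf7l2 was -0.64 ± 0.24 (adjusted p = 0.119) and passed at -1.06 with adjusted p = 0.006 without AFX passage 16. Axin2, with a mean of 17.7 ± 1.40 CPM in AFX and 18.2 ± 9.90 CPM in AF (SD, n = 3), did not separate the media, with adjusted p = 0.979 and a spread in AF that covered all AFX values. The feeder fibroblast, streak and visceral endoderm marker sums were all higher in AF than in AFX in every sample, as were those of extraembryonic ectoderm, and the part of those cells in Sp5 and Tcf7l2 was not tested.

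FS2 and FS1 did not differ in any of the 9 members by the test, where 3.85% of all genes did (2.65% higher and 1.2% lower in FS2). The DESeq2 Wald test called 0, and 1 member, Sp5, had an unadjusted p under 0.05 (adjusted p = 0.153). Its mean was 1.96 ± 2.72 CPM in FS1 (SD, n = 3), carried by passage 10, and all 3 FS2 passages were at or under 3 counts. The 3 comparisons between FS, AF and AFX share samples and are given side by side only.

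**Figure D3:**
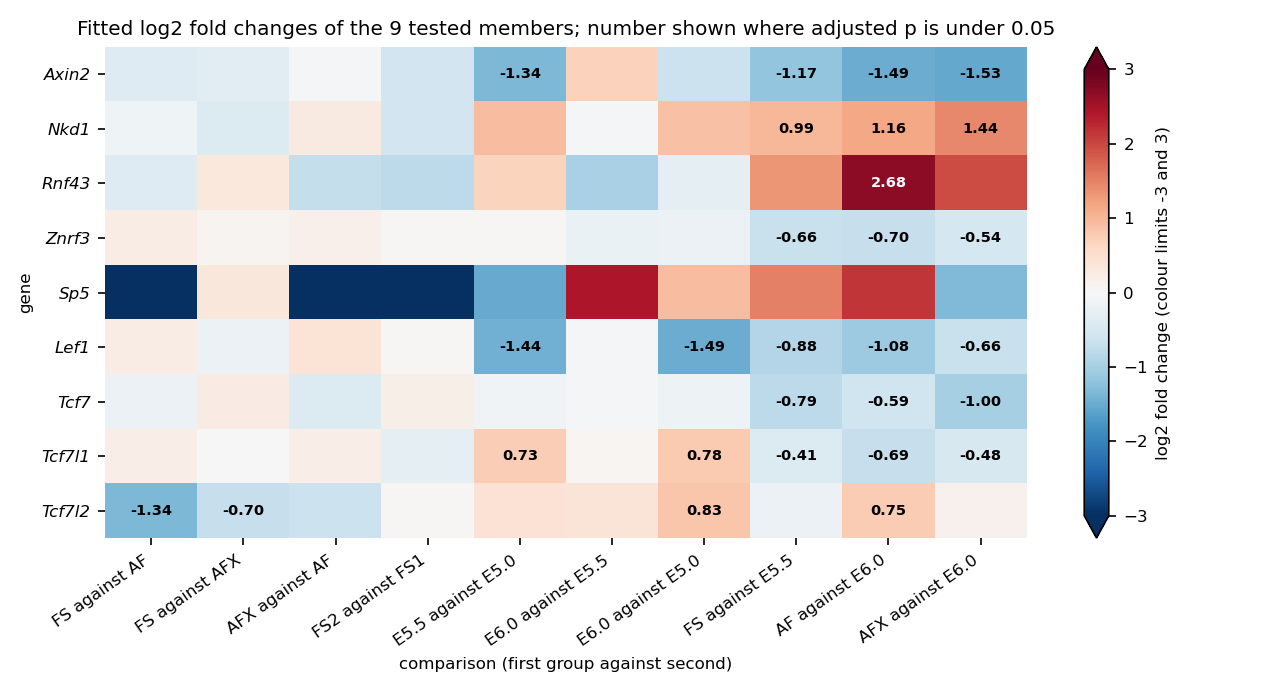
Fitted log2 fold change (colour, first group against second) of the 9 tested members in 10 comparisons, with the number printed where the adjusted p was under 0.05. Tcf7l2 carries both calls among cultured cells, Lef1, Axin2, Tcf7l1 and Tcf7l2 those between stages, and most calls lie between cultured cells and epiblasts; colours of Sp5 rest on few counts.

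Cultured cells were set against epiblasts in a fit of all 21 samples, FS against E5.5 and AF and AFX against E6.0. Between FS and E5.5, 6 of 9 members passed, where 43.8% of all 16614 genes did (23% higher and 20.8% lower in FS). Nkd1 was higher in FS by 0.99 ± 0.30 (adjusted p = 0.0105). Lower in FS were Axin2 at -1.17 ± 0.36, Lef1 at -0.88 ± 0.21, Tcf7 at -0.79 ± 0.13, Znrf3 at -0.66 ± 0.15 and Tcf7l1 at -0.41 ± 0.13, with adjusted p from 5.33e-05 for Tcf7 to 0.0164 for Tcf7l1. Their median over the 9 was -0.41, against 0.08 over all genes. Without E5.5 embryo 3 only 3 of them passed, those lost being Axin2 (-1.07, adjusted p = 0.061), Nkd1 (0.81, adjusted p = 0.071) and Tcf7l1 (-0.39, adjusted p = 0.060). Without E5.5 embryo 1, Axin2 (-1.08, adjusted p = 0.054) and Tcf7l1 (-0.39, adjusted p = 0.055) were lost. With FS1 as the only FS line 4 passed, without Axin2 (-0.91, adjusted p = 0.121) and Tcf7l1 (-0.27, adjusted p = 0.180), and with FS2 as the only line 5 passed, without Nkd1 (0.68, adjusted p = 0.104).

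Between AF and E6.0, 8 of 9 members passed, where 35.2% of all genes did (18.1% higher and 17.1% lower in AF). Higher in AF were Rnf43 at 2.68 ± 0.90, Nkd1 at 1.16 ± 0.34 and Tcf7l2 at 0.75 ± 0.23, and lower were Axin2 at -1.49 ± 0.44, Lef1 at -1.08 ± 0.25, Znrf3 at -0.70 ± 0.18, Tcf7l1 at -0.69 ± 0.16 and Tcf7 at -0.59 ± 0.16. The adjusted p ran from 0.00189 for Tcf7l1 to 0.0242 for Rnf43. Rnf43 rested on AF passage 15, and without it was 1.34 with adjusted p = 0.312. Leaving out that passage also ended the calls of Axin2 (-1.15, adjusted p = 0.070) and Tcf7l2 (0.61, adjusted p = 0.081), leaving 5 members called. Another 3 samples ended calls when left out: E6.0 embryo 2 those of Axin2 (-1.19), Rnf43 (2.62) and Tcf7l2 (0.69), E6.0 embryo 3 those of Rnf43 (2.26) and Tcf7l2 (0.71), and AF passage 16 that of Nkd1 (0.94).

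Between AFX and E6.0, 6 of 9 passed, where 32.8% of all genes did (17.1% higher and 15.8% lower in AFX). Nkd1 was higher in AFX by 1.44 ± 0.34, and Axin2 (-1.53 ± 0.44), Tcf7 (-0.996 ± 0.16), Lef1 (-0.66 ± 0.24), Znrf3 (-0.54 ± 0.18) and Tcf7l1 (-0.48 ± 0.16) were lower, with adjusted p from 6.39e-05 for Tcf7 to 0.0427 for Lef1. Rnf43 was 1.96 ± 0.90 (adjusted p = 0.0964). The call of Lef1 was lost in each of the 6 fits that left out 1 AFX or E6.0 sample (-0.58 to -0.74). That of Znrf3 was lost without AFX passage 14 or 16 or E6.0 embryo 1 or 3 (-0.41 to -0.54), that of Tcf7l1 without AFX passage 14 (-0.37) or E6.0 embryo 3 (-0.35), and that of Axin2 without E6.0 embryo 2 (-1.23).

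Marker genes moved with these 3 comparisons. Neural markers were higher in culture in 2 of 5 in FS against E5.5, 2 of 5 in AF against E6.0 and 4 of 5 in AFX against E6.0, and epiblast markers were lower in 3, 4 and 3 of 5, with 1 higher in FS. Feeder fibroblast markers were higher in 4 of 6 in AF, 3 higher and 1 lower in AFX, and 1 higher and 1 lower in FS. Visceral endoderm markers were lower in 5 of 7 in FS and in 2 of 7 in AFX, and higher in 2 of 7 in AF. Extraembryonic ectoderm markers were lower in 3 of 4 in FS and 1 of 4 in AFX, and higher in 2 of 4 in AF. Of 7 streak markers 1 was higher in AF, 1 was lower in AFX and 0 passed in FS. Of 5 naive epiblast markers 2 were lower in FS, 1 was higher in AF and 3 were lower in AFX. The part of these cells in the members' levels was not tested.

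The 3 comparisons of culture with embryo depend on how libraries are scaled. With raw library totals, an alternative added after the data were seen, the called genes split into 5385 higher and 2072 lower in FS against E5.5 in place of 3828 and 3448, 3962 and 1652 in AF against E6.0 in place of 3000 and 2847, and 3858 and 1459 in AFX against E6.0 in place of 2835 and 2617. The median log2 fold change of all genes was then 0.33, 0.28 and 0.29 in place of 0.08, 0.08 and 0.09. Calls lost were those of Axin2 and Tcf7l1 in FS against E5.5, Tcf7 in AF against E6.0, and Znrf3, Lef1 and Tcf7l1 in AFX against E6.0. No called member changed its direction.

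Across samples Axin2 and Nkd1 were positively correlated in culture and negatively in the embryo, a difference that was not tested. Over the 12 cultured samples Axin2 correlated with Nkd1 at Pearson r = 0.86 (Spearman 0.89) and with Sp5 at 0.76 (0.67), and Nkd1 with Sp5 at 0.60 (0.54). Over the 9 epiblasts Axin2 and Nkd1 had r = -0.70 (Spearman -0.80), while Axin2 followed Lef1 at 0.77 (0.85). Lef1 and Tcf7l1 had r = -0.94 in epiblasts, with a weaker Spearman value of -0.65, and -0.10 (-0.21) in culture. Lef1 and Nkd1 had -0.86 (-0.88) in epiblasts and 0.60 (0.48) in culture. These are descriptions over samples that share lines, stages and scaling, and they were not computed within stages.

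In culture, 2 samples stood at the ends of their groups for several members. AF passage 15 was the lowest AF passage for Axin2 (8.61 CPM), Nkd1 (7.82), Sp5 (1.23) and Lef1 (34.98), and FS1 passage 10 was the highest FS sample for Axin2 (28.6), Nkd1 (19.4), Sp5 (5.06) and Lef1 (95.1). The streak marker sum was 151 CPM in AF passage 15 against 315 and 585 in passages 14 and 16, and 110 CPM in FS1 passage 10 against 32.0 to 52.0 in the other FS samples. The part of streak cells in the feedback genes of these samples was not tested.

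**Figure D4:**
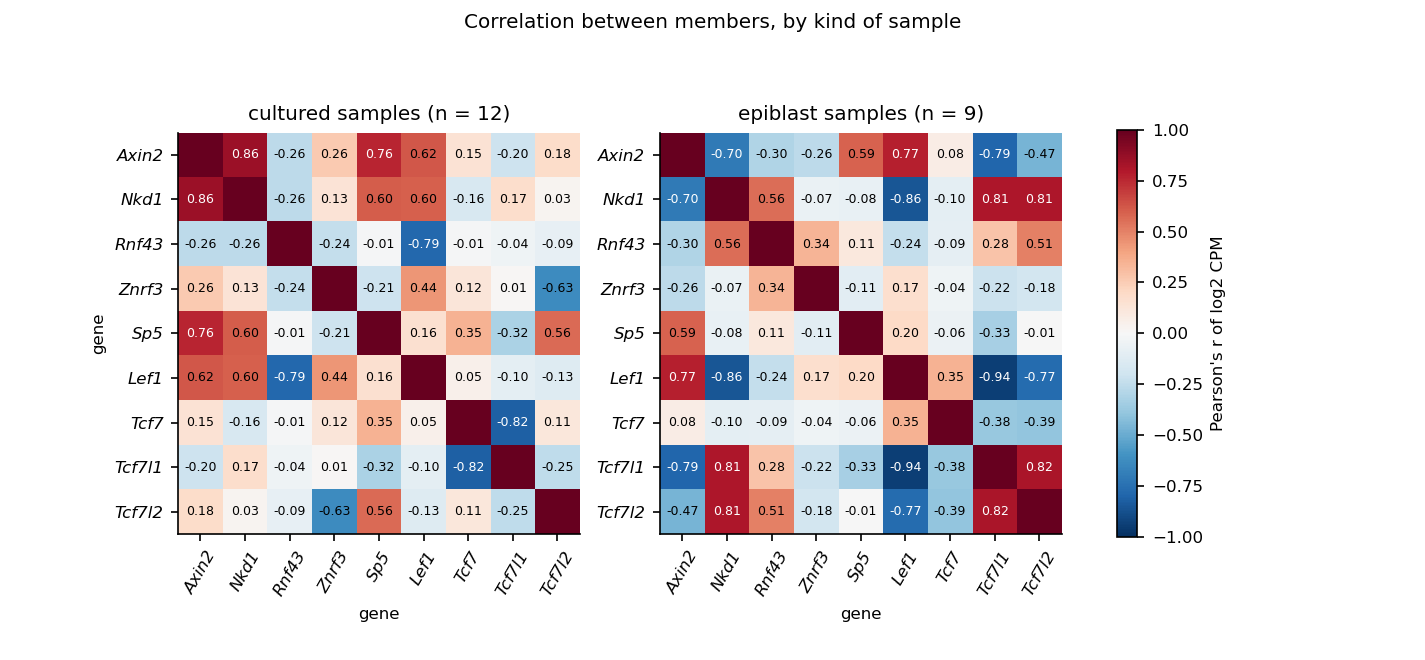
Pearson correlation of log2 CPM between the 9 members tested, over the 12 cultured samples (left) and the 9 epiblasts (right), with the value in each square. Axin2 and Nkd1 stand at 0.86 in culture and -0.70 in epiblasts, and Lef1 and Tcf7l1 at -0.94 in epiblasts, where their Spearman value is -0.65.

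**Figure D5:**
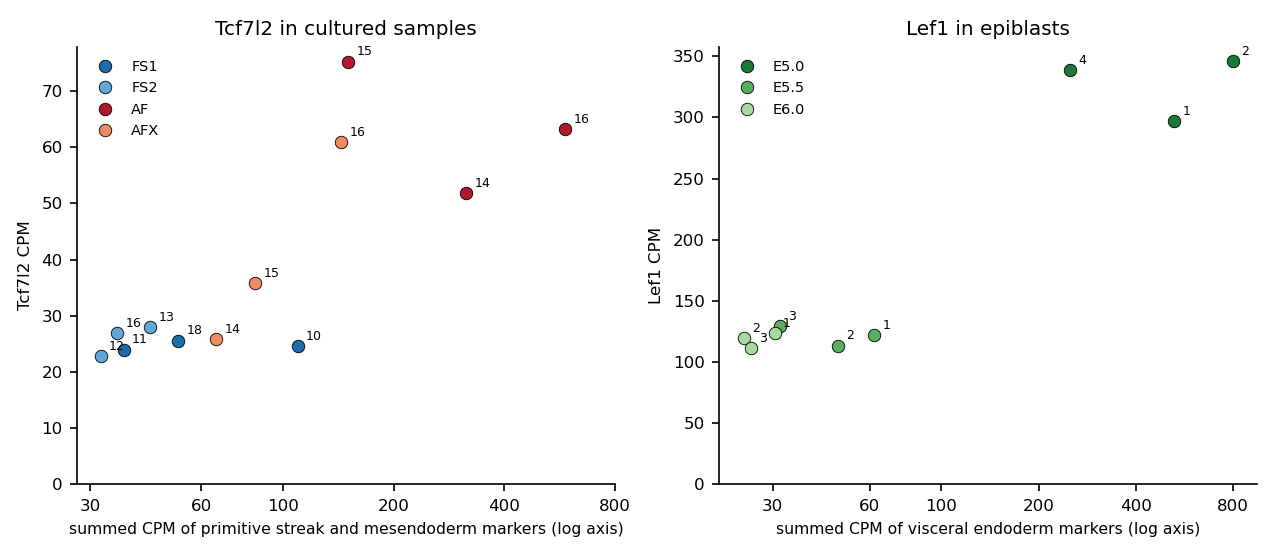
Left, Tcf7l2 level against the summed level of streak markers in the 12 cultured samples, and right, Lef1 level against the summed level of visceral endoderm markers in the 9 epiblasts, in CPM with a log horizontal axis and points labelled by passage or embryo number. AFX passage 16 (144 and 60.9 CPM) lies next to AF passage 15 (151 and 75.2 CPM) in the left panel. Among the AF passages the lowest streak sum goes with the highest Tcf7l2. FS1 passage 10, with a streak sum of 110 CPM, lies within the Tcf7l2 range of the other FS samples. On the right the 3 E5.0 embryos have Lef1 of 297 to 346 CPM over a range of marker sums from 250 to 796 CPM.

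The genes most like each member were taken by Pearson correlation among genes with a mean of at least 10 CPM. Over the 12 cultured samples, from 8696 genes, the closest were Lzts1 (0.91) and Apln (0.90) for Axin2, Naa35 (0.92) and Zdhhc3 (0.92) for Nkd1, Chrd (0.94) and Epha1 (0.91) for Sp5, Arpp19 (0.94) and Txnl1 (0.92) for Lef1, and Amot (0.96) and Flt1 (0.94) for Tcf7l2. Over the 9 epiblasts, from 8282 genes, they were Edem1 (0.95) and Adamts9 (0.94) for Axin2, Amot (0.985) and Tns3 (0.98) for Lef1, Mtcl1 (0.98) and D8Ertd82e (0.98) for Tcf7l1, and Dync2h1 (0.98) and Zfp704 (0.98) for Tcf7l2. With so few samples high values are common among so many genes, and Spearman's rho put another gene first in most cases.

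Other WNT target genes, a list of 14, were lower in FS than in AF where they passed. Of 12 tested, 5 were lower in FS, 0 higher and 7 did not pass, where 10.6% of all genes were lower. The count was 3 without AF passage 16 and 3 with FS1 as the only FS line. Leaving out any sample but FS1 passage 11 ended the call of Nkd2, one of the 5. Dkk1, a secreted inhibitor of the LRP receptors, was 15.4, 10.99 and 17.0 CPM in AF and at most 1.69 CPM in FS (-5.53 ± 0.87, adjusted p = 0.00085). Without FS1 passage 10 the Dkk1 difference was -7.87. Lgr5, a receptor for R-spondins, was 17.5, 5.98 and 31.8 CPM in AF and at most 2.48 CPM in FS (-5.11 ± 0.92, adjusted p = 0.0026). The Lgr5 difference was -6.70 without FS1 passage 10 and -4.45 without AF passage 16. In FS against AFX 3 of 12 were lower and 0 higher, where 4.92% of all genes were lower, and the count was 5 without FS1 passage 10 and 7 with FS2 as the only FS line. In AFX against AF 1 of 12 was higher and 0 lower, where 4.3% and 4.42% of all genes were. It was Bambi, a decoy receptor of the TGF-beta family, at 48.8 to 54.9 CPM in AFX against 12.3 to 19.2 CPM in AF (1.78 ± 0.39, adjusted p = 0.0136, lost without AF passage 14 or 16). Bambi was also the 1 called of 12 in FS2 against FS1, higher in FS2 by 1.18 ± 0.22 (adjusted p = 0.00602), where 2.65% of all genes were higher and 1.2% lower.

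In the embryo 1 of 9 tested genes of that list was higher at E5.5 than at E5.0, where 3.07% of all genes were, and 2 of 9 were higher at E6.0 than at E5.0, where 10.2% were. The latter count was 4 without E5.0 embryo 1 or 2 and 1 without E6.0 embryo 1 or 2. Between E5.5 and E6.0 edgeR called 0 of 9, where 4.43% of all genes passed. Of these 9, 1 had an unadjusted p under 0.05, the DESeq2 Wald test called 1, and 1 passed without E6.0 embryo 3. The cell cycle gene Ccnd1 was called at E5.5 and at E6.0 against E5.0, at 113 ± 18.6, 168 ± 34.5 and 188 ± 6.64 CPM (SD, n = 3) at E5.0, E5.5 and E6.0. It rose by 0.72 ± 0.15 from E5.0 to E6.0 (adjusted p = 0.00352), while its call at E5.5 was lost in 4 fits that left out 1 embryo. None of these 9 passed as lower at a later stage, as Axin2 and Lef1 did at E5.5.

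Genes of the destruction complex, 10 in number, were compared in the same way. The ubiquitin ligase subunit Btrc was the only one to pass in FS against AF (higher in FS by 0.88 ± 0.17, adjusted p = 0.00251), where 19.5% of all genes passed, and edgeR called 0 of 10 in AFX against AF, in FS2 against FS1 and at E5.5 against E5.0, where 8.73%, 3.85% and 6.82% of all genes passed. In these 3 comparisons 3, 3 and 2 genes had an unadjusted p under 0.05, and the DESeq2 Wald test called 1, 1 and 0. At E6.0 against E5.0, 5 of 10 were higher and 0 lower, where 10.2% of all genes were higher. The count fell to 2 without E6.0 embryo 2 or embryo 3 and to 3 without E6.0 embryo 1 or E5.0 embryo 1, the calls lost being among those of Apc, Tnks2 and Ctnnb1. Among those called were the kinases Gsk3b (0.83 ± 0.12, adjusted p = 0.000292) and Csnk1a1 (0.69 ± 0.09, adjusted p = 0.000105). Axin1, the ubiquitous counterpart of Axin2, was 97.1 ± 8.29, 105 ± 8.70 and 99.5 ± 7.07 CPM at E5.0, E5.5 and E6.0 and did not pass there.

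The corepressors and coactivators that TCF/LEF proteins recruit, with 13 of 14 listed genes in the table, had 3 called lower and 0 higher of 12 tested at E5.5 against E5.0, where 3.75% of all genes were lower and 3.07% higher. Tle4, a Groucho corepressor, was 431, 382 and 504 CPM in the E5.0 embryos, 164, 176 and 190 at E5.5 and 94.3, 84.4 and 82.0 at E6.0. It fell by 1.33 ± 0.11 to E5.5 (adjusted p = 0.000109) and by a further 1.03 ± 0.11 to E6.0 (adjusted p = 0.000128), so that each stage lay below the one before. Tle3, its paralogue, was 181, 190 and 149 CPM, then 83.8, 60.1 and 53.3, then 256, 240 and 253, a fall of 1.41 ± 0.16 (adjusted p = 0.000385) and a rise of 1.92 ± 0.16 (adjusted p = 1.05e-05). Over the list, 1 was higher and 1 lower of 12 at E6.0 against E5.5, where 1.89% and 2.54% of all genes were, and 2 higher and 1 lower of 12 at E6.0 against E5.0, where 10.2% and 11.6% were. In FS against AF 1 was higher and 2 lower of 13, shares near those of all genes (8.86% higher and 10.6% lower). The lower ones were Tle2 (-3.10 ± 0.69, adjusted p = 0.00544) and Aes (-1.97 ± 0.30, adjusted p = 0.000516), a short relative of the TLE proteins. Tle2 was -3.99 without FS1 passage 10, -2.29 with FS1 as the only FS line and -4.68 with FS2 as the only line. Aes was also lower in AFX than in AF (-1.74 ± 0.37, adjusted p = 0.0113, lost without AFX passage 15).

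The R-spondin, LGR and LRP genes act at the step that Rnf43 and Znrf3 control. Lgr4, a receptor for R-spondins, also fell, from 130 ± 11.4 CPM at E5.0 to 81.6 ± 10.2 at E5.5 and 66.1 ± 2.67 at E6.0 (SD, n = 3). It fell by 0.69 ± 0.12 from E5.0 to E5.5 (adjusted p = 0.00603) and fell by 0.996 ± 0.12 from E5.0 to E6.0 (adjusted p = 8.27e-05). The coreceptor gene Lrp6 rose by 0.56 ± 0.10 from E5.0 to E6.0 (adjusted p = 0.00125). These were the 2 of 7 tested genes that passed at E6.0 against E5.0, where 21.8% of all genes did, and in FS against AF 1 was higher and 2 lower of 10, where 8.86% and 10.6% of all genes were, so both counts lay near the background. At E5.5 against E5.0 this list gave 1 higher, Lrp6, and 1 lower, Lgr4, of 7, where 3.07% and 3.75% of all genes were, and 1 passed without E5.5 embryo 2 or 3.

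Naive pluripotency genes known to be repressed by TCF7L1 were followed beside it. Of 6 listed, 4 passed the filter on low counts in culture, and Tbx3 and Nr5a2 did not. In FS against AF Tcf7l1 did not pass (166 ± 32.1 CPM in 6 FS samples and 142 ± 13.1 CPM in 3 AF samples). All 4 tested were lower in FS, where 10.6% of all genes were. They were Klf2 at -3.32 ± 0.55, Esrrb at -2.05 ± 0.53, Tfcp2l1 at -1.78 ± 0.44 and Nanog at -1.34 ± 0.32, with adjusted p from 0.000731 to 0.0135. Klf2, Esrrb and Tfcp2l1 averaged under 5 CPM and may have passed the filter on low counts mainly through AF. The count of 4 can therefore not be read against the share of all genes. Esrrb did not pass without AF passage 16 (-1.66, adjusted p = 0.083), nor Tfcp2l1 without AF passage 15 (-1.27, adjusted p = 0.078). With FS1 as the only FS line 1 was called, Klf2, and under a filter of 5 CPM on the mean Nanog alone was tested and passed. In the embryo, where Tcf7l1 rose to E5.5, edgeR called 0 of 5 at E5.5 against E5.0, where 6.82% of all genes passed. Of these 5, 3 had an unadjusted p under 0.05, the DESeq2 Wald test called 2, and 2 passed without E5.0 embryo 1. At E6.0 against E5.0 1 of 5 was higher and 1 lower, where 10.2% and 11.6% of all genes were. Tfcp2l1 fell by 2.72 ± 0.52 (adjusted p = 0.00213) and Nanog rose by 2.87 ± 0.68 (adjusted p = 0.017). The call of Nanog was lost without E5.0 embryo 2, and without E5.0 embryo 1 its rise was 4.24. The 3 others did not pass.

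Between culture and embryo the lists gave the following counts. The other WNT targets had 2 higher and 2 lower of 13 in FS against E5.5, 3 and 2 in AF against E6.0 and 3 and 2 in AFX against E6.0. Of all genes 23% were higher and 20.8% lower in the first, 18.1% and 17.1% in the second and 17.1% and 15.8% in the third, so these shares lay near the background. The higher ones in FS included the adhesion gene Cd44 (log2 fold change 2.46) and the lower ones Myc (-2.09). The destruction complex had 4 higher and 2 lower of 10 in FS against E5.5, 1 and 4 in AF against E6.0 and 0 and 5 in AFX against E6.0, and the cofactors 2 and 5, 1 and 4, and 1 and 5 of 13. In AF against E6.0 the 5 called of the destruction complex became 3 without AF passage 15 or E6.0 embryo 2, and the 5 called cofactors became 2 without AF passage 15 or E6.0 embryo 3 and 3 without E6.0 embryo 1 or 2. In AFX against E6.0 the 5 called WNT targets became 3 without AFX passage 14 or E6.0 embryo 2. With raw library totals the 5 called of the destruction complex and the 6 called cofactors in AFX against E6.0 each became 3, and with FS1 as the only FS line the 7 called cofactors in FS against E5.5 became 4. The members' own counts, 1 higher and 5 lower, 3 and 5, and 1 and 5 of 9, leaned to lower levels in culture in all 3, with the dependence on scaling given above.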

How the data were processed

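RNA of 12 cultured samples and 9 single epiblasts was prepared with the PicoPure kit, per the labels' protocols. The deposited values are raw counts per gene, whole numbers whose totals differ between samples, made by the authors with Trim Galore, TopHat2 2.1.0 and featureCounts 1.5.0 on mm10, per the submitters' processing notes. The annotation release and the strand setting are not given in the sources used here. Each of the 21 columns matched 1 sample's label, and 0 columns belonged to another series. Every pair of samples within a group differed by more than sampling noise, and no batch is labelled.

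The tests were run with edgeR 4.0.16 and limma 3.58.1 in R 4.3.3, using filterByExpr, TMM scaling, robust two-sided quasi-likelihood F-tests, and Benjamini-Hochberg adjustment over all genes tested, with a threshold of 0.05. Fits held the 12 cultured samples (16052 genes tested), the 9 epiblasts (14228) or all 21 (16614), with FS1 and FS2 as 1 group except in FS2 against FS1. Log2 fold changes carry their SE. Levels are CPM on TMM-scaled totals of all 21 samples, and CPM per kilobase uses the merged exon length of GENCODE M21. Correlations use log2 CPM with a prior count of 2. Depth limits low genes, and floors of 3 counts cover counting error only. The steps were tested on simulated data.

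All 10 members are named whatever their result. Of each pathway list at most the 2 largest called changes in a comparison are named, or all of a list with 5 or fewer measured genes, and for likeness the 2 genes with the highest Pearson correlation. Axin1 is named beside Axin2 outside this rule, after its values were seen. The members and lists were chosen with earlier results of these data known. Alternatives were DESeq2 1.42.0 size factors and Wald test, fits without a filter or with only genes averaging 5 CPM or more, the compared groups alone, FS lines alone or separate, fits without 1 sample, a replicate block, and, added later, raw library totals and other transcript lengths. Python 3.11.15 with numpy 2.4.6, scipy 1.17.1, pandas 2.3.3 and matplotlib 3.10.9 was used for levels and figures.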

Additional observations from a re-analysis of the deposited data

Results flagged for a closer look

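Among the 6 FS samples, FS1 passage 10 stood far from the others for a pair of members. Axin2 was 28.6 CPM there and at most 15.2 CPM in the other 5, and Sp5 was 5.06 CPM there and at most 0.83 CPM in the others. The critical value used for such a gap is passed by chance in about 1 in 20 groups, and the 10 members were each looked at. The streak marker sum of that sample was 110 CPM, against at most 52.0 CPM in the other FS samples, and its part in these levels was not tested.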

How the results depend on the processing

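Alternative values were tallied for the members' fold changes that passed above and for a few hand-picked ones that did not. Of these 496 values, 430 kept their direction and side of the threshold and 55 kept the direction and no longer passed. A further 11 newly passed and 0 changed direction. Calls gained by the other members that had not passed are not in this tally. Of 690 pathway list counts 533 stayed within 1.5 times. Of 1655 fold changes of pathway genes called above, 1440 kept their call and 215 lost it. Leaving out each sample in turn, the genes called ranged from 820 to 1485 in FS against AFX (1397 with all samples), 732 to 1129 in AFX against AF (1401), 316 to 478 in FS2 against FS1 (618), 371 to 1260 in E5.5 against E5.0 (971), 238 to 372 in E6.0 against E5.5 (631) and 1905 to 3362 in E6.0 against E5.0 (3100). The members called ranged from 1 to 2 in FS against AF (1), 0 to 1 in FS against AFX (1), AFX against AF (0), FS2 against FS1 (0) and E6.0 against E5.5 (0), 3 to 6 in FS against E5.5 (6), 5 to 8 in AF against E6.0 (8) and 3 to 5 in AFX against E6.0 (6). Where a sample is left out, the remaining pair is assumed to vary like the other groups. With the DESeq2 Wald test 1099, 1590 and 1075 genes were called in FS2 against FS1, E5.5 against E5.0 and E6.0 against E5.5, with no filter 1298, 1659 and 1107, and with the compared groups alone 1045, 453 and 1445. Members called were 2 in FS against AF with FS lines separate and 2 with FS2 alone. In FS against AFX 0 passed with the groups alone, with FS1 alone and with FS2 alone. In AFX against AF 1 passed with the groups alone. Without a filter 1 passed in FS2 against FS1 and 1 in E6.0 against E5.5, and with raw library totals 3 passed in AFX against E6.0. The cause of these shifts was not tested.

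Same-numbered samples did not deviate together: for AF and AFX passages 14, 15 and 16 the correlations of deviations were -0.20, -0.15 and 0.30, and for embryo numbers they ran from -0.11 to 0.11. A replicate block of passage number gave 907 genes and 1 member, Sp5 (-3.40, adjusted p = 0.00696), in AFX against AF, and a block of embryo number 421 genes in E5.5 against E5.0, where Axin2 was -1.13 (adjusted p = 0.168), and in E6.0 against E5.0 Tcf7l2 was 0.63 with that block (adjusted p = 0.061).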
